A study of Homo sapiens with 12 samples.

Results

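Complement is a cascade of plasma and cell-surface proteins that marks targets for uptake and can end in a membrane pore. In the classical pathway the protease C1r activates C1s, which cleaves C4 and C2 to form an enzyme that splits C3, and factor B serves the alternative pathway. C1 inhibitor and factor I restrain the cascade in fluid, while CD46, CD55 and CD59 protect the cell's own surface, and tumour cells are known to carry them. Here 9 complement genes were read from a table of 40173 Ensembl gene IDs, each matched by symbol to 1 ID. They were the proteases C1R and C1S, C3, CFB (factor B), the fluid-phase regulators CFI (factor I) and SERPING1 (C1 inhibitor), and the membrane regulators CD46, CD55 and CD59.

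The RNA was from the human melanoma cell line 624Mel, with 3 libraries for each of 4 conditions. Cells received a control siRNA (siCTRL) or an siRNA against MITF (siMITF), the transcription factor that maintains the melanocytic state, and MITF loss was used to dedifferentiate them. Treated cells were given 5 ng/mL interferon gamma (IFNγ) 24 h after transfection and were collected after 24 h of it, and the other cells were labelled as having no treatment. The methods describe independent biological replicates, and the results rest on a single line and, as far as stated, a single siRNA per target. In these bulk samples, fewer cells expressing a gene and less RNA per cell cannot be told apart. The values were TPM, the share of each library's transcripts scaled for length, in which depth is not kept, so depth is unknown and no detection floor or counting error is given.

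MITF had 187, 229 and 217 TPM in siCTRL libraries and 36.0, 49.7 and 41.7 TPM in siMITF libraries. With IFNγ it had 158, 246 and 243 TPM against 37.5, 55.1 and 51.3 TPM. It was lower in every siMITF library, with log2 differences of -2.29 and -2.14. All 7 melanocytic markers reached 2 TPM in every condition. Of markers of other cells that make complement, 0 of 5 hepatocyte and 0 of 5 endothelial genes, 1 of 5 myeloid genes (LYZ) and 1 of 6 fibroblast genes (LUM) reached 2 TPM in any condition, and FGB was listed at 0 throughout. The fibroblast list summed to 5.34 to 6.74 TPM in siCTRL, 2.70 to 3.90 in siCTRL + IFNγ, 7.52 to 8.77 in siMITF and 5.01 to 5.95 in siMITF + IFNγ libraries. The myeloid list summed to 2.96 to 3.29, 1.80 to 2.59, 4.87 to 5.79 and 4.29 to 4.51 TPM in the same order. Both sums were lower with IFNγ and higher with siMITF, and most of each was LYZ or LUM. The other myeloid and fibroblast markers, at levels under 1 TPM, went both ways with IFNγ in siMITF cells. Some went up, such as mean PTPRC from 0.170 to 0.616 TPM, CSF1R from 0.310 to 0.533 TPM and COL1A2 from 0.0644 to 0.266 TPM. Mean DCN went down from 0.407 to 0.345 TPM, COL1A1 from 0.842 to 0.822, COL3A1 from 0.0224 to 0.0104 and TYROBP from 0.0247 to 0.0120. The part of these markers in the results was not tested. Mitochondrial genes took 14.2%, 7.42% and 14.8% of TPM in siCTRL libraries and 16.9%, 8.45% and 15.7% after IFNγ. In siMITF libraries they took 12.8%, 10.1% and 14.0%, and 16.9%, 12.7% and 16.1% after IFNγ. The share was thus higher with IFNγ in each of the 6 pairs of the same replicate number, and its part in the results was not tested.

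IFNγ signals through a STAT dimer that binds GAS elements, and IRF proteins bind ISRE elements, while MITF binds E-boxes. Upstream sequence is shown for C1R, CFB and CD59, the members in which a search of the 250 bases before a start found a GAS-type match. RefSeq (GRCh38.p14) gave 11 windows for 6 members, CD46, CD55, CD59, CFB, CFI and C1R. C1S, C3 and SERPING1 had no entry. Capitals mark matches to TTCNNNGAA (GAS) or to GAAA, any 2 bases and GAAA (ISRE), searched on both strands.
C1R, chr12:7091894-7092143, minus strand: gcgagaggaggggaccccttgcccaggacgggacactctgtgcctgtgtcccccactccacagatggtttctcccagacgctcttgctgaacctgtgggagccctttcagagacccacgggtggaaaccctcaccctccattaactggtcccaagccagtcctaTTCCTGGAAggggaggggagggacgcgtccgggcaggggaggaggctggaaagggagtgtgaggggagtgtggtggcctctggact
CFB, chr6:31945845-31946094, plus strand: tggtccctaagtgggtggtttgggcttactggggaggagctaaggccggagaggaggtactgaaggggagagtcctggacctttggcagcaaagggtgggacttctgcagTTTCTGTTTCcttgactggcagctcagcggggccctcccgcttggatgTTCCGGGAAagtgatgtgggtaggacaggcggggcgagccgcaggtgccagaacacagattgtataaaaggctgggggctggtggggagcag
CD59, chr11:33736480-33736729, minus strand: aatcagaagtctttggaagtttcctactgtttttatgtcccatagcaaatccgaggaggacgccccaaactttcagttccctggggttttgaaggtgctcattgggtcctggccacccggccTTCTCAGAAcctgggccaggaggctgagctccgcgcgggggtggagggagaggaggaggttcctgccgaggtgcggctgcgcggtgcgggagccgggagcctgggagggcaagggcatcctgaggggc
The GAS-type matches began 86 bases before the start in C1R, 92 in CFB and 128 in CD59, and the ISRE-type match of CFB, on the reverse strand, 140 bases before it. The C1R window belongs to the downstream of its RefSeq starts, and its other window held no match. Of 4 windows of CD59, 2 overlapping ones held its match. Of 35116 such windows of all genes, 6.57% held the GAS letters and 3.02% the ISRE letters. The E-boxes CACGTG and CATGTG, found in 6.34% and 9.42% of windows, were in none of the members' windows. A match is a run of letters and not a measured site.

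IFNγ raised the C1 proteases, C3 and C1 inhibitor in both siRNA conditions, from levels near 0 for all but C1S. Values were compared as log2 of TPM plus 1 with limma, and p-values were adjusted over all 12773 IDs tested, those whose mean reached 2 TPM in any condition. Of the 9 members, 7 reached this minimum, which the IFNγ libraries alone met for C1R, C3 and SERPING1, so these had to be higher there to be tested. The study's 3 thresholds define a changed gene here, namely adjusted p under 0.05, a log2 difference of 1 or more in size and 2 TPM in either condition compared. With IFNγ, C1R, C1S, C3 and SERPING1 changed in siCTRL cells, all higher, against 2.42% of all tested IDs. The same 4 genes changed in siMITF cells, where 2.72% of all tested IDs were called higher. By the adjusted p alone CD59 was also higher in siCTRL cells, 5 members against 6.8% of all IDs, and CD59 and CD46 in siMITF cells, 6 members against 7.99%.

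SERPING1 (ENSG00000149131, chromosome 11 from 57597387 to 57619171) encodes the inhibitor that inactivates C1r and C1s. It had 0.0144, 0 and 0 TPM in siCTRL libraries and 0, 0 and 0.00645 TPM in siMITF libraries. With IFNγ it had 40.6, 50.6 and 45.7 TPM in siCTRL cells and 88.5, 77.7 and 86.0 TPM in siMITF cells. The gene was therefore listed at or next to 0 in all 6 untreated libraries, and the 3 libraries of the combination lay above every other library. The fitted log2 rise was 5.53 in siCTRL cells (standard error 0.10, limma adjusted p = 5.0e-13) and 6.41 in siMITF cells (limma adjusted p = 1.1e-13). With a baseline at 0 these sizes follow the pseudocount and are no fold change. Within IFNγ-treated cells, where no value is near 0, siMITF libraries were 1.84-fold higher by mean TPM.

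C1S (ENSG00000182326, chromosome 12 from 6988259 to 7071032), the protease that cleaves C4 and C2, was the one of these 4 genes above 1 TPM before treatment. Its TPM were 1.99, 2.83 and 2.73 in siCTRL libraries and 35.3, 50.3 and 42.8 in siCTRL + IFNγ libraries. In siMITF cells they were 1.98, 1.88 and 1.52 without and 37.2, 43.8 and 42.5 with IFNγ. The treated libraries of both siRNAs overlapped. The log2 rise was 3.63 in siCTRL cells (standard error 0.14, limma adjusted p = 8.8e-10) and 3.92 in siMITF cells (limma adjusted p = 3.0e-10).

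C1R (ENSG00000159403, chromosome 12 from 7080214 to 7092540) encodes the protease that activates C1s. The gene lies 9181 bases from C1S on the opposite strand. It had 0.139, 0.0655 and 0.0652 TPM in siCTRL libraries and 12.3, 13.9 and 8.92 TPM with IFNγ. In siMITF cells it had 0.626, 0.0546 and 0.616 TPM, and 14.9, 13.7 and 14.6 TPM with IFNγ. Treated libraries overlapped between the siRNAs, as they did for C1S. Its log2 rises were 3.52 (standard error 0.18, limma adjusted p = 1.2e-08) and 3.45 (limma adjusted p = 1.3e-08). These sizes, too, follow the pseudocount, and with 0.1 they were 5.95 and 5.07. The 2954 bases at its 5′ end are also annotated to C1RL on the same strand, so their reads are not fully separable.

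C3 (ENSG00000125730, chromosome 19 from 6677704 to 6730562), on which the pathways converge, rose with IFNγ under both siRNAs. Its TPM were 0.255, 0.0671 and 0.177 in siCTRL and 0.296, 0.219 and 0.0731 in siMITF libraries. After IFNγ its TPM were 2.09, 3.98 and 3.63 in siCTRL cells and 7.20, 13.6 and 12.9 in siMITF cells. Untreated libraries overlapped, while every library of the combination lay above every siCTRL + IFNγ library. The log2 rise with IFNγ was 1.83 in siCTRL cells (standard error 0.22, limma adjusted p = 9.1e-05) and 3.31 in siMITF cells (limma adjusted p = 2.2e-07). From so low a baseline the size follows the pseudocount, and with 0.1 the rises were 3.66 and 5.29. Mean TPM was 19.5-fold and 57.3-fold higher.

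**Figure D1:**
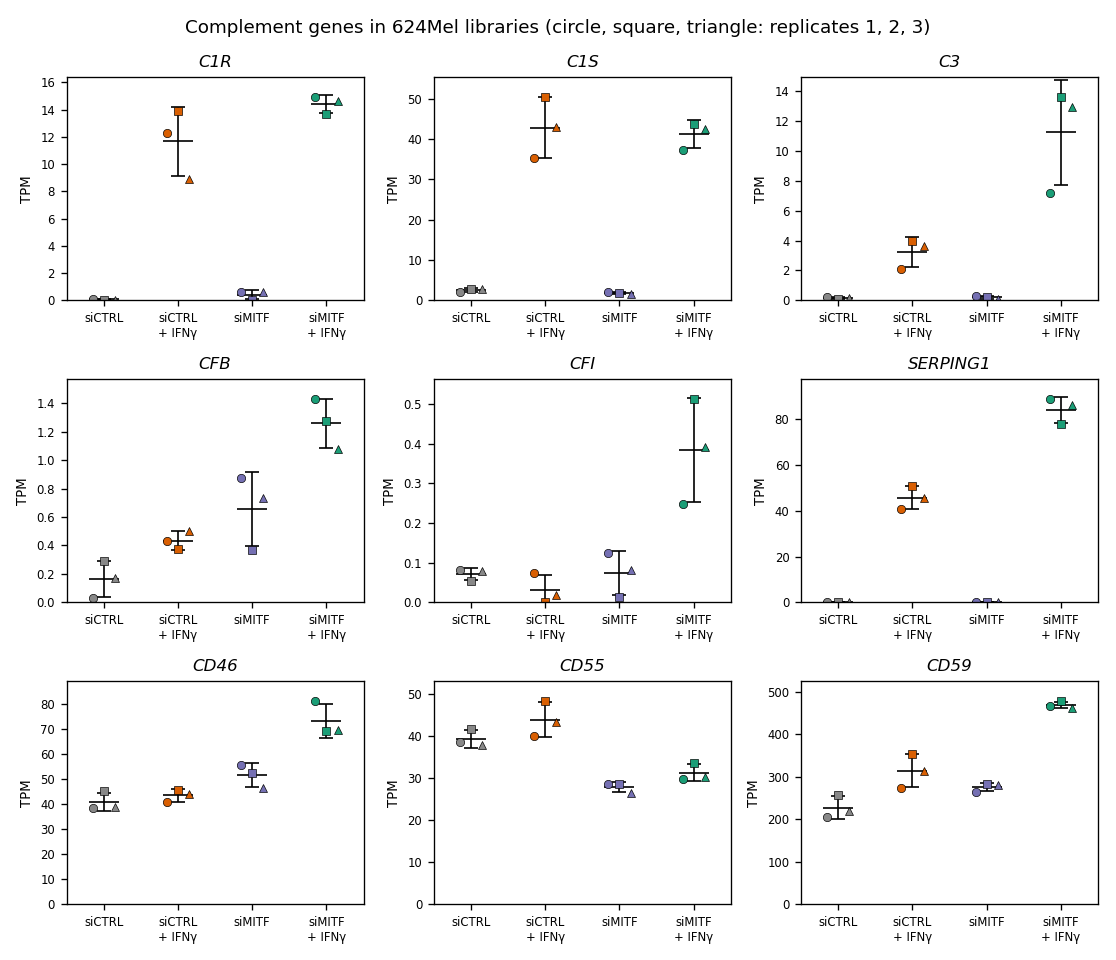
TPM of the 9 complement genes in each library (points; vertical axes start at 0 and differ in scale), with mean and SD of 3 libraries per condition. C1R, C1S, C3 and SERPING1 are high in IFNγ-treated libraries, CD55 is lower in siMITF libraries, and CFB and CFI stay under 2 TPM.

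CFB and CFI stayed under 2 TPM in every library and were not tested. CFB (ENSG00000243649, chromosome 6 from 31945650 to 31952086) encodes the protease of the alternative pathway. It had 0.0332, 0.289 and 0.170 TPM in siCTRL libraries and 0.430, 0.373 and 0.502 TPM after IFNγ. In siMITF cells it had 0.871, 0.366 and 0.732 TPM, and 1.43, 1.27 and 1.08 TPM after IFNγ. The combination lay above all other libraries and the siCTRL libraries below all others. CFB lies in the MHC region, of which Ensembl also holds haplotype copies under other gene IDs, and 4653 IDs of the table had no symbol in the annotation used. Reads listed under such IDs would be missed, so the level of CFB, and of C2, C4A and C4B from the same region, may be too low here.

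CFI (ENSG00000205403, chromosome 4 from 109731008 to 109802150), the protease that inactivates C3b and C4b, had between 0 and 0.124 TPM in the 9 libraries outside the combination. In siMITF + IFNγ libraries it had 0.249, 0.511 and 0.393 TPM. All 3 lay above the rest, at a level too low to be tested.

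The membrane regulators were present in every library and moved by less. CD59 (ENSG00000085063, chromosome 11 from 33703010 to 33736479), which blocks the assembly of the membrane pore, had the highest TPM of the members in each condition. Its TPM were 205.5, 257 and 219 in siCTRL libraries and 275, 352 and 315 after IFNγ. In siMITF cells they were 264, 283 and 279.5, and 466, 477 and 463 after IFNγ. The combination lay above all other libraries, and siMITF and siCTRL + IFNγ libraries overlapped. IFNγ raised CD59 by 0.46 on the log2 scale in siCTRL cells (standard error 0.10, limma adjusted p = 0.0065) and by 0.76 in siMITF cells (limma adjusted p = 1.1e-04). siMITF raised it by 0.58 with IFNγ (limma adjusted p = 4.9e-04) and by 0.28 without (limma adjusted p = 0.037). That last call was lost without siCTRL replicate 1, siCTRL replicate 3, siCTRL + IFNγ replicate 3 or any of the 3 siMITF libraries without IFNγ, with a limma adjusted p up to 0.152, and with no filter (0.084) or no intensity trend (0.0543).

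CD46 (ENSG00000117335, chromosome 1 from 207752037 to 207795513), a cofactor for factor I, rose with siMITF. It had 38.6, 45.2 and 39.0 TPM in siCTRL and 40.9, 45.8 and 44.2 TPM in siCTRL + IFNγ libraries, which overlapped. In siMITF libraries it had 55.8, 52.6 and 46.6 TPM, and with IFNγ 81.1, 69.3 and 69.6 TPM, above all others. siMITF raised CD46 by 0.33 on the log2 scale without IFNγ (standard error 0.10, limma adjusted p = 0.019) and by 0.73 with it (limma adjusted p = 8.6e-05). The first call was lost without siCTRL replicate 1 or 3 or siMITF replicate 1 or 2, with a limma adjusted p up to 0.0885. IFNγ raised CD46 in siMITF cells by 0.50 (limma adjusted p = 0.0031), while the difference in siCTRL cells was 0.09 (limma adjusted p = 0.606).

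CD55 (ENSG00000196352, chromosome 1 from 207321519 to 207386804), which speeds the decay of the C3-splitting enzymes, went the other way with siMITF. Its TPM were 38.6, 41.7 and 37.8 in siCTRL and 40.0, 48.3 and 43.5 in siCTRL + IFNγ libraries. In siMITF cells they were 28.5, 28.6 and 26.5 without and 29.9, 33.7 and 30.4 with IFNγ. All 6 siMITF libraries lay below all 6 siCTRL libraries. CD55 fell by 0.48 on the log2 scale with siMITF without IFNγ (standard error 0.09, limma adjusted p = 8.8e-04) and by 0.47 with IFNγ (limma adjusted p = 0.0011). The differences with IFNγ were 0.15 and 0.16 (limma adjusted p = 0.300 and 0.213). After each library was centred on its median these were 0.17 and 0.20 (limma adjusted p = 0.0494 and 0.0183).

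**Figure D2:**
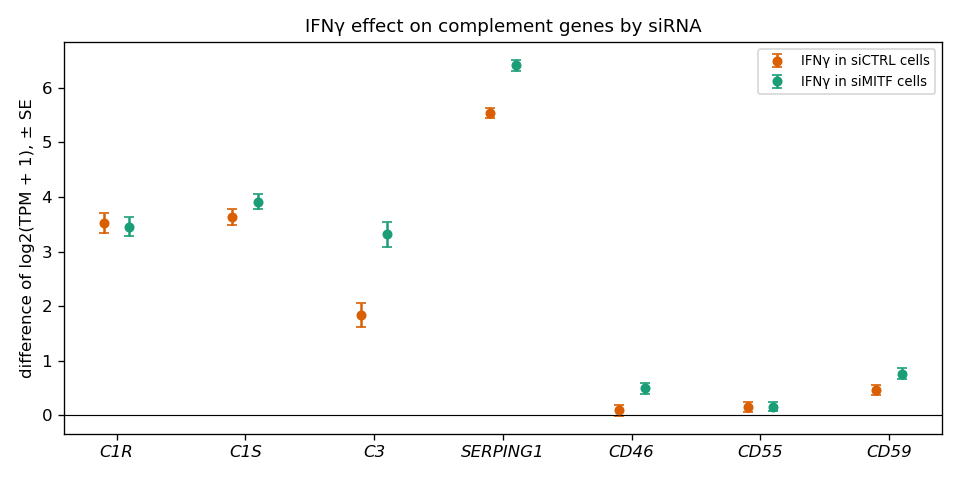
Difference of log2(TPM + 1) with IFNγ in siCTRL and in siMITF cells (points, ± standard error from limma, 3 libraries per condition) for the 7 tested members. The values for SERPING1 are 5.53 and 6.41, and those for CD55 are 0.15 and 0.16.

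Without IFNγ, 0 of the 7 tested members changed by the 3 thresholds with siMITF, against 6.1% of all tested IDs. C1R, C3 and SERPING1 could not be called here. Their condition means were at most 0.432, 0.196 and 0.0048 TPM, under the 2 TPM that a call requires. The count of 0 therefore speaks only for C1S, CD46, CD55 and CD59. By the adjusted p alone CD46 and CD59 were higher, against 21% of all tested IDs, and CD55 was lower, against 13.8%. At an unadjusted p under 0.05, C1S was also lower (log2 difference -0.33), with a limma adjusted p of 0.0907. In a fit with the replicate number as a block that value was 0.0271, and it ran from 6.6e-04 to 0.262 across the alternatives. C1R differed by 0.37 and C3 by 0.04 (limma adjusted p = 0.132 and 0.924). By mean TPM C1R was 4.80-fold higher, from 0.0901 to 0.432 TPM, and its log2 difference was 0.59 and 1.21 with pseudocounts of 0.5 and 0.1 (limma adjusted p = 0.0807 and 0.066). Without siMITF replicate 2 it was 0.57 (limma adjusted p = 0.0167).

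With IFNγ in both arms, C3 changed, with a log2 difference of 1.51 between siMITF and siCTRL cells (standard error 0.22, limma adjusted p = 1.9e-04). In all, 3.12% of tested IDs were called higher here. SERPING1 rose by 0.87 (standard error 0.10, limma adjusted p = 2.0e-05), under the limit of 1, and CD46 and CD59 rose as given above. These 4 genes were higher in siMITF cells by the adjusted p alone, against 18.4% of all tested IDs, and CD55 was lower, against 14.7%. C1R (0.30) and C1S (-0.04) did not pass (limma adjusted p = 0.221 and 0.844).

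Whether the effect of IFNγ depended on MITF was tested as an interaction, the log2 IFNγ effect under siMITF less the one under siCTRL. It passed, with an adjusted p under 0.05, for SERPING1 and C3, both positive, while 0.705% of all tested IDs had a positive one. Both genes reached 2 TPM only with IFNγ. At their untreated levels the pseudocount holds the siMITF difference without IFNγ near 0, at -0.0038 and 0.035. The interactions therefore nearly repeat the siMITF differences with IFNγ, 0.87 and 1.51. An siMITF effect of the same fold with and without IFNγ cannot be told apart from dependence on MITF here. The interaction of SERPING1 was 0.87 (standard error 0.14, limma adjusted p = 0.0081), and it was 1.12, 0.61 and 0.89 when libraries were matched by replicate number. It stayed under 0.05 without each library in turn, at most 0.0329. With a pseudocount of 0.1 the call was lost (adjusted p = 0.0803), with an interaction of 0.92 and a standard error of 0.20. For C3 the interaction was 1.48 (standard error 0.31, limma adjusted p = 0.0493), and 1.36, 1.36 and 1.72 by replicate number. Its call was lost in 10 of the 12 fits without 1 library, all but those without siCTRL + IFNγ replicate 2 or siMITF + IFNγ replicate 1, with an adjusted p up to 0.148, and it ran from 0.0051 to 0.41 across all alternatives. With a pseudocount of 0.1 the C3 interaction was 1.62, with a standard error of 0.56 and an adjusted p of 0.41, so here too the size moved little and the error grew.

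The other 5 tested members did not pass. The interactions were 0.41 for CD46 (limma adjusted p = 0.354), 0.30 for CD59 (0.638), 0.28 for C1S (0.882), -0.07 for C1R (0.996) and 0.01 for CD55 (0.999). On the TPM scale the combination was set against a sum, the siCTRL level plus both single effects. For CD46 this sum was 54.4 TPM and the combination had 73.3 ± 6.74 TPM (mean ± SD, n = 3), above the sum in 3 of 3 replicate numbers. CD59 reached 468 ± 7.50 TPM against a sum of 362 TPM, again higher in 3 of 3. SERPING1 had 84.1 ± 5.65 TPM against a sum of 45.6, and C3 had 11.2 ± 3.49 TPM against 3.26. For CD55 the combination, 31.3 ± 2.07 TPM, was below the sum of 32.4 in 3 of 3. C1R had 14.4 ± 0.624 TPM against 12.03, and C1S 41.2 ± 3.49 TPM against 42.1, each above the sum in 2 of 3. These differences in TPM were not tested.

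**Figure D3:**
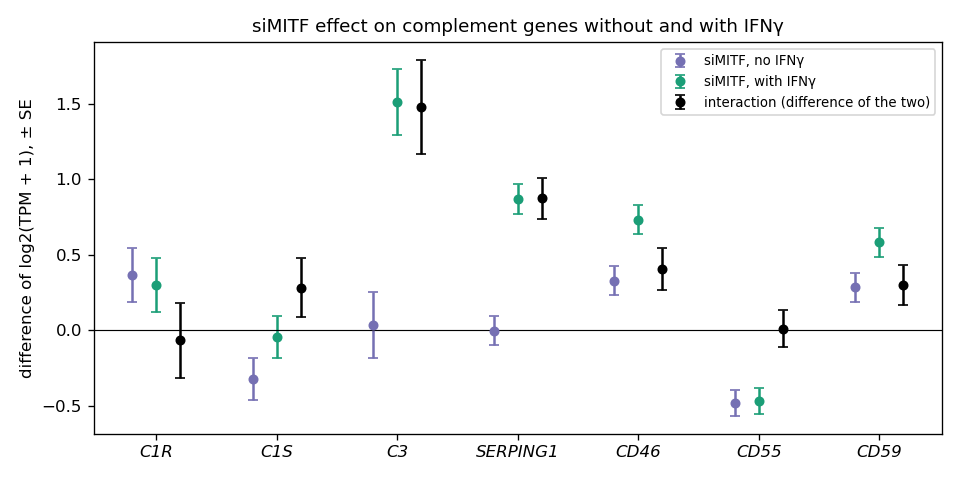
Difference of log2(TPM + 1) with siMITF, without and with IFNγ, and the interaction (points, ± standard error from limma, 3 libraries per condition). C3, SERPING1, CD46 and CD59 are higher with siMITF when IFNγ is present (1.51, 0.87, 0.73 and 0.58). CD55 is lower in both settings (-0.48 and -0.47).

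Against untreated siCTRL cells, the combination changed 5 of the 7 tested members, all higher, where 5.61% of all tested IDs were called higher. These were C1R, C1S, C3, SERPING1 and CD59, whose rise of 1.05 (standard error 0.10, limma adjusted p = 2.2e-06) was next to the limit of 1 and fell to 0.98 without siCTRL replicate 1. CD46 rose by 0.82 (limma adjusted p = 2.0e-05), and CD55 fell by 0.32 (limma adjusted p = 0.0092). By the adjusted p alone 6 members were higher, against 21.1% of all tested IDs, and 1 lower, against 23.4%. Both counts of higher members include C1R, C3 and SERPING1, which reached 2 TPM only with IFNγ. The filter thus favoured their being higher here, and the counts are a description. This comparison shares its control libraries with those of the single treatments. For none of the comparisons of 3 libraries against 3 can an exact two-sided permutation test give a p below 0.1.

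The conditions ordered the members in different ways. For libraries that do not overlap, here and in the other paragraphs, the share over all tested IDs is not given. These orders are therefore a description. For SERPING1 and C3 the order ran from the overlapping untreated conditions to siCTRL + IFNγ and then the combination, without overlap between those last groups. For C1R and C1S the treated conditions came above the untreated ones and overlapped each other. CD59 ran from siCTRL to overlapping siMITF and siCTRL + IFNγ libraries and to the combination, and CD46 from overlapping siCTRL and siCTRL + IFNγ libraries to siMITF and to the combination. For CD55 the order was siMITF, siMITF + IFNγ, siCTRL and siCTRL + IFNγ, and only the libraries of those last conditions overlapped.

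Of 47 other complement genes on a wider list, 10 reached 2 TPM in a condition, 37 did not, and 7 of those were listed at 0 in all libraries. With IFNγ in siCTRL cells 4 of the 10 changed, all higher, against 2.42% of all tested IDs. The same 4 did in siMITF cells, against 2.72%: C2, C4A, C4B and C1RL. The median log2 effect of the 10 genes was 0.12 in siCTRL and 0.45 in siMITF cells, against -0.07 and -0.10 over all tested IDs. The same medians over the 7 tested members were 1.83 and 3.31. Each is the value of C3, which, like C1R and SERPING1, reached 2 TPM only in IFNγ-treated libraries. For the 4 changed wider genes, too, only IFNγ-treated libraries reached 2 TPM. The filter thus favours higher medians in both lists, and the distance from the median of all tested IDs is a description. With siMITF alone 1 of the 10 genes changed, ITGAX, which was lower, where 6.1% of all tested IDs changed in either direction. ITGAX reached a mean of 2 TPM only in siCTRL libraries without IFNγ, so it had to be higher there to be tested. C1RL, C2, C4A and C4B could not be called in this comparison. Their condition means were at most 0.467, 0.185, 0.367 and 0.250 TPM, under the 2 TPM that a call requires. With IFNγ in both arms 2 of the 10 genes changed, C4A and C4B, both higher, against 3.12% of all tested IDs. The combination against siCTRL changed 5 genes higher, against 5.61% of all tested IDs, and 1 lower, against 400 of 12773 IDs.

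C2 and C4, the substrates of C1s, had the largest TPM among these 4 genes in IFNγ-treated libraries. C2 (ENSG00000166278, chromosome 6 from 31897785 to 31945673) went from 0.111 ± 0.0326 to 26.5 ± 3.17 TPM with IFNγ in siCTRL cells and from 0.185 ± 0.0982 to 32.5 ± 2.23 TPM in siMITF cells (mean ± SD, n = 3). Its log2 rises with IFNγ were 4.62 and 4.82 (limma adjusted p = 9.4e-12 and 4.9e-12). C4A and C4B are near-identical copies between which reads can be split, so their sum is also given. Together they had 66.5, 60.2 and 43.9 TPM in siCTRL + IFNγ libraries and 176, 132 and 130.0 TPM in siMITF + IFNγ libraries. The untreated libraries had at most 0.676 TPM. All libraries of the combination thus lay above those of IFNγ alone, with a log2 difference of 1.35 for the sum (standard error 0.17, limma adjusted p = 5.1e-05).

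For the sum of C4A and C4B, added after seeing the data, the interaction was 1.15 (standard error 0.24, limma adjusted p = 0.0432). That of C4B alone was 1.23 (limma adjusted p = 0.0089) and that of C4A 1.21 (limma adjusted p = 0.124). The C4B call was lost with a pseudocount of 0.1 (0.88, adjusted p = 0.764) and of 0.5 (1.17, adjusted p = 0.0613). With the replicate block the adjusted p of C4A was 0.0022, and it ran from 0.0022 to 0.886 across the alternatives. It also fell under 0.05, to 0.0413, without siCTRL + IFNγ replicate 1.

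C1RL, a C1r-like protease, went from 0.467 ± 0.218 to 3.32 ± 0.422 TPM with IFNγ in siCTRL cells and from 0.381 ± 0.204 to 3.28 ± 0.743 TPM in siMITF cells. CLU (clusterin, which binds terminal complexes) had 2.46 ± 0.305 TPM in siCTRL and 6.31 ± 1.93 TPM in siMITF + IFNγ libraries, a log2 rise of 1.05 (limma adjusted p = 7.4e-04). This was 0.87 without siMITF + IFNγ replicate 2 and 0.89 after quantile normalization, under the limit of 1.

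**Figure D4:**
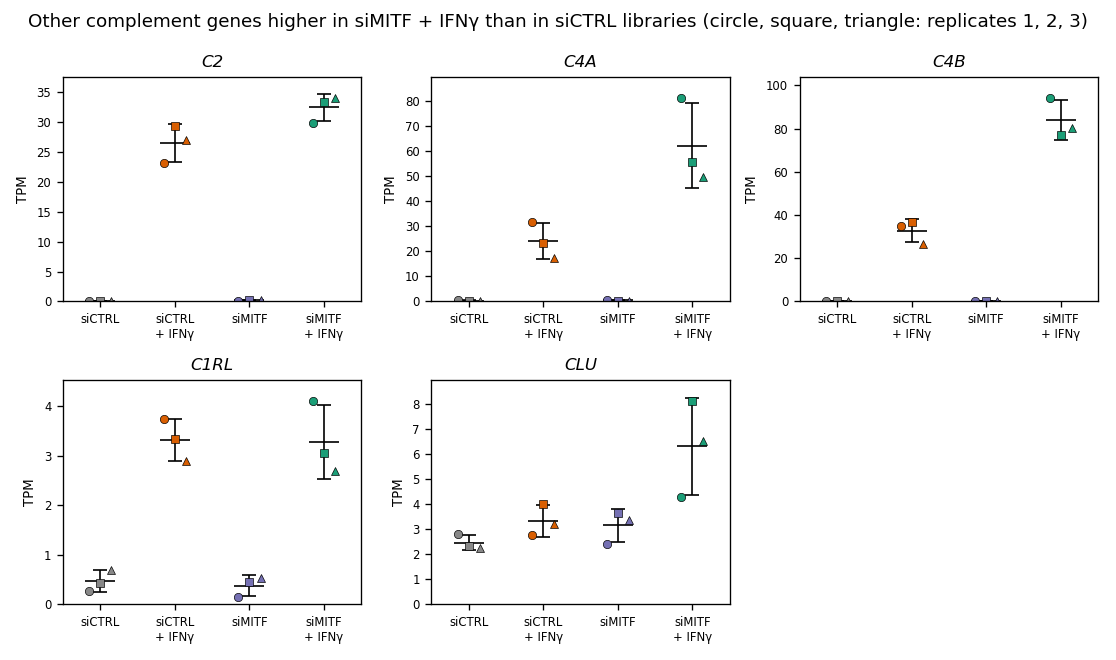
TPM of C2, C4A, C4B, C1RL and CLU in each library (points; vertical axes start at 0 and differ in scale), with mean and SD of 3 libraries per condition. C4A and C4B are higher in siMITF + IFNγ than in siCTRL + IFNγ libraries, without overlap.

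The tested genes whose log2 values ran most like a member over the 12 libraries differed by member. These correlations span 4 conditions that share their treatments and are given as a description. SERPING1 ran most like GBP5, GBP1 and OAS2 (Pearson r of 0.999 each), C1S like UBE2L6, NLRC5 and IFI35 (0.998, 0.997 and 0.997) and C1R like BST2, IFI27 and IFI44L (0.993, 0.993 and 0.993), all known interferon-induced genes. C3 ran most like SLC15A3 (0.993), CHRD (0.989) and CAND2 (0.986). CD46 ran most like RCN1, ERO1B and UBE2E3 (0.985, 0.976 and 0.974), CD59 like GPM6A, PPA1 and DOCK10 (0.979, 0.977 and 0.972), and CD55 like DIPK1A, ZNF438 and CDK20 (0.987, 0.984 and 0.983).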

How the data were processed

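RNA of 12 libraries, 3 per condition, was sequenced by the authors, who used Trimmomatic 0.39 for trimming, kallisto with an Ensembl GRCh38 transcriptome for quantification and DESeq2 1.26.0 to test counts, per the methods and the submitters' processing notes. The tool that summed transcripts to genes is not given in the sources used here. The authors deposited TPM per gene ID and library, summing to 975336 to 982632 TPM per library. TPM do not keep depth, and unequal composition of libraries can shift all other genes.

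Here, log2(TPM + 1) was fitted with limma 3.58.1 in R 4.3.3, with 1 coefficient per condition, all 12 libraries and an intensity trend, on the 12773 IDs whose mean reached 2 TPM in any condition. Tests were two-sided with Benjamini-Hochberg adjustment. Scripts were tested on simulated data. Symbols and positions came from GENCODE 44. Named genes were the 9 members, MITF, genes of the wider list at 2 TPM or more and the 3 IDs most correlated with each tested member. LYZ, LUM, FGB and the C1q, C8, C5 and C9 genes were named after their values were seen. 1 gene of the wider list is not reported here, and counts over the list leave it out. Members and lists were chosen with earlier results of these data known. Deviations from the condition means correlated at 0.102 to 0.625 in the 18 pairs that share a replicate number (median 0.279), against a median of -0.196 for different numbers, so a replicate block was an alternative. The other alternatives were pseudocounts of 0.1 and 0.5, no filter, a mean of 5 TPM over all libraries, quantile normalization, median centring, no trend, only the conditions compared, TPM summed by symbol, C4A and C4B summed (chosen after seeing the data) and leaving out each library.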

Additional observations from a re-analysis of the deposited data

Results flagged for a closer look

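The effect of IFNγ differed between siMITF and siCTRL cells for 3 complement genes by the interaction test (limma, adjusted p under 0.05). On the log2 scale the difference was 1.48 for C3, 0.87 for SERPING1 and 1.23 for C4B, and each was positive in 3 of 3 replicate numbers. In all 3 genes the values without IFNγ were under 1 TPM in every library, so the test depends on the pseudocount. At a pseudocount of 1 the siMITF differences without IFNγ were held near 0, at 0.035, -0.0038 and 0.10. An siMITF effect of the same fold with and without IFNγ cannot be told apart from such a difference. All 3 calls were lost with a pseudocount of 0.1, with adjusted p-values of 0.41, 0.0803 and 0.764 (limma), and those of C3 and C4B also with 0.5 (0.0898 and 0.0613). C3 passed narrowly at the pseudocount of 1, with an adjusted p of 0.0493, and C4B is a near-identical copy of C4A between which reads can be split.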

How the results depend on the processing

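Of 268 recomputed counts of changed genes, 246 stayed within 1.5 times the reported count and 22 did not. Of 1365 recomputed gene values, 1311 kept their direction and side of the adjusted p threshold, 28 lost that call, 12 gained it and 14 turned sign. Apart from this, 3 values of changed genes fell under the log2 limit of 1, all in the combination against siCTRL, namely CD59 without siCTRL replicate 1 and CLU in 2 settings. With a required mean of 5 TPM across the 12 libraries, which leaves fewer genes to test, the wider list had 0 changed genes with siMITF alone and 3 in the combination, and 0 members changed with siMITF in the presence of IFNγ, since C3 was not tested. Members with an interaction numbered 0 with a pseudocount of 0.1 and 1 with a pseudocount of 0.5, with no filter and with the mean of 5 TPM, and 1 to 2 without each library. Wider genes with one numbered 0 with either pseudocount and 2 with the replicate block, and 1 to 2 without each library, 2 without siCTRL + IFNγ replicate 1. With C4A and C4B summed, 1 wider gene changed with siMITF in the presence of IFNγ, since the pair counts as 1. The interaction of C4B had an adjusted p of 0.764 and 0.0613 (limma) with pseudocounts of 0.1 and 0.5. The cause was not tested. The sign turned only in values that did not pass. With quantile normalization the interaction of C1R was 0.032 and the siMITF difference of C3 without IFNγ was -0.054. Without each library the former ran from -0.27 to 0.058 and the latter from -0.027 to 0.11, the siMITF difference of C1S with IFNγ from -0.17 to 0.077, that of SERPING1 without IFNγ from -0.0072 to 0.0031 and the interaction of CD55 from -0.054 to 0.079. The replicate block changed no other call than those of C1S and C4A, where the adjusted p was 0.0271 and 0.0022 (limma). CD55 also passed with IFNγ after quantile normalization (limma adjusted p = 0.0197 and 0.0096). TPM keep no depth, so what depth limits cannot be given, and values under 1 TPM are compressed on the log2(TPM + 1) scale.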

Other observations

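ITGAX, a subunit of complement receptor CR4, had 2.32, 2.51 and 2.53 TPM in siCTRL libraries and 0.396, 0.472 and 0.432 TPM in siMITF libraries, and fell by 1.27 on the log2 scale (standard error 0.09, limma adjusted p = 5.8e-07). With IFNγ it had 1.81, 1.71 and 1.52 TPM against 0.540, 0.495 and 0.591 TPM. ITGB2, its partner chain, had 1.91, 2.61 and 2.23 TPM in siCTRL and 3.26, 3.45 and 3.18 TPM in siMITF libraries. With IFNγ, ITGB2 had 1.87, 2.45 and 1.95 TPM in siCTRL cells and 1.69, 2.31 and 2.45 TPM in siMITF cells, which overlapped. The log2 difference of ITGB2 with siMITF was 0.41 without IFNγ (limma adjusted p = 0.0253) and 0.02 with it (limma adjusted p = 0.912). These levels are near the minimum of 2 TPM, which the mean of ITGAX reached only in siCTRL libraries without IFNγ. C1QBP, a C1q-binding protein found mainly in mitochondria, had the highest TPM of the list, from 446 to 555 TPM over all libraries. CPN1, which inactivates anaphylatoxins, had from 3.16 to 5.19 TPM, and CSMD1, a membrane inhibitor, from 1.92 to 9.25 TPM, lowest in replicate 1 of both IFNγ-treated conditions.

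The 3 genes of C1q, C1QA, C1QB and C1QC, were listed at 0 in all libraries but 1, and the pore genes C8A and C8B at 0 in all 12. C5 and C9 had means under 0.5 TPM in every condition.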
